A study of Rattus norvegicus with 6 samples.

Results

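The E2F and retinoblastoma gene family was examined in cultured rat oligodendrocyte precursor cells (OPCs), the dividing glial cells that give rise to myelinating oligodendrocytes. Its members were chosen by gene name from 10 names (E2f1 to E2f8, Rb1 and Rbl1), of which 9 had a row in the deposited table of 32883 genes. All 9 passed the filter on low counts, as did 14670 genes of the table. E2f1 had no row of its name. OPCs were grown from the pooled cerebral cortices of 2 newborn (P0) Sprague Dawley rats after mixed culture in serum and shaking, then kept in Neurobasal medium with B27 and N2. The cells were given either 5 µM ZJU-37, an inhibitor of the RIPK1 kinase modified from Nec-1s, or an equal volume of its solvent DMSO. Poly-A RNA from 3 libraries of each group was sequenced. The labels give 36 h of treatment, whereas the Methods text gives a shorter time. The study calls the libraries biological repeats in one place and plate wells in another, so that p-values measure the spread between these libraries, which may be technical.

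E2F proteins bind DNA as dimers with DP proteins and control the genes that carry a cell from G1 into S phase. The pocket proteins (RB, encoded by Rb1, p107, encoded by Rbl1, and p130, encoded by Rbl2) hold E2Fs in check until cyclin-dependent kinases phosphorylate them. E2F1, E2F2 and E2F3 are known as activators, E2F4 and E2F5 act mostly with pocket proteins as repressors, E2F6 represses through Polycomb proteins, and E2F7 and E2F8 are atypical repressors that need no DP partner. In OPCs, the exit from the cell cycle comes before differentiation into oligodendrocytes.

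Several family genes are themselves known targets of E2Fs, and promoters are therefore shown for the members whose transcripts are described next. RefSeq promoters of rat assembly GRCr8, each 250 bases before to 50 bases after the gene start, were at hand for 5 of the 10 names (E2f3, E2f6, E2f7, Rb1 and Rbl1). They were searched on both strands for the E2F consensus in its spellings TTTCCCGC, TTTCGCGC, TTTGCCGC and TTTGGCGC, a set that 2.14% of all 33469 promoters and 3.95% of the 10396 promoters of tested genes hold. Matches, in capitals, were found in E2f3 (chr17:34810166-34810465, plus strand), Rb1 (chr15:54911808-54912107, minus strand) and Rbl1 (chr3:166289327-166289626, minus strand), with 1 match each. The windows of E2f6 and E2f7 (chr7:48036653-48036952, plus strand) held none of these spellings, and E2f7 is shown for comparison. Each line reads 5′ to 3′ on the strand of the gene.
Rbl1: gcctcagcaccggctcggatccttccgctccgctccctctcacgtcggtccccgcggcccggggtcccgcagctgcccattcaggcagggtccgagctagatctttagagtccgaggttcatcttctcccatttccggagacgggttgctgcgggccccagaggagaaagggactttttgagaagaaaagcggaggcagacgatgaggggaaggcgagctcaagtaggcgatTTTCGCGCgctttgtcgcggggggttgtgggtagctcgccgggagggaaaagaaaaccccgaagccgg
Rb1: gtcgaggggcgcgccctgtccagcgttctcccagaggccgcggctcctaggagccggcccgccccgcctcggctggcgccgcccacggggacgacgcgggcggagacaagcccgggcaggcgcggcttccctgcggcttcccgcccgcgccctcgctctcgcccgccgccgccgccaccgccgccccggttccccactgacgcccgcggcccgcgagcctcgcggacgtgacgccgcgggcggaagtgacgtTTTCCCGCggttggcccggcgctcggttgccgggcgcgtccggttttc
E2f3: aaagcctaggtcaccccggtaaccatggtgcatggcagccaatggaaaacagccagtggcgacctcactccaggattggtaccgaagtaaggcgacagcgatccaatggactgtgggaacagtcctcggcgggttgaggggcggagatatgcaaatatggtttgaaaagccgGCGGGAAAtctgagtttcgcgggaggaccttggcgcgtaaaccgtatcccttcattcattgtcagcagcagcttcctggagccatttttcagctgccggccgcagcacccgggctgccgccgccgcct
E2f7: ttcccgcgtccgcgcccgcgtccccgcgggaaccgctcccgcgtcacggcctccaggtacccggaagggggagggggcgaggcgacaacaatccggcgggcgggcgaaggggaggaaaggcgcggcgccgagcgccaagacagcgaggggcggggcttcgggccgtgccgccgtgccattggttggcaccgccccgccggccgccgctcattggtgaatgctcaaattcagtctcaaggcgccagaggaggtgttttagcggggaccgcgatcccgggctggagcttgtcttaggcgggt

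The match of Rbl1 was TTTCGCGC, from base 233 to base 240 of the window, which is 18 bases before the gene start. Rb1 had TTTCCCGC from base 253 to base 260, just after the start, and E2f3 had it on the other strand from base 173 to base 180. The cell cycle homology motif TTTGAA, a short motif read by the MuvB complex, stood in the E2f3 window and in none of the other 4, whereas 18.3% of all promoters and 11.5% of those of tested genes held it. Among 58 promoters of the textbook G1/S and G2/M genes described further down, 37.9% held an E2F spelling and 32.8% the TTTGAA motif. A match is a string of letters and does not show binding.

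The libraries held between 13935865 and 24097927 counts, so that 3 counts corresponded to at most 0.215 CPM (counts scaled to library size by TMM), and the rarest member had at least 120 counts in each library. Markers of OPCs were high in all libraries, with a summed level of 7 markers from 3857 to 4476 CPM in the DMSO libraries and from 4411 to 6075 CPM in the ZJU-37 libraries. Of these markers, 4 were higher (Pdgfra, Cspg4, Olig1 and Ptprz1) and 2 lower (Sox10 and Gpr17) with ZJU-37. The 8 markers of differentiated oligodendrocytes summed to between 12860 and 24410 CPM with DMSO and between 5066 and 10190 CPM with ZJU-37, and 3 of them fell (Cnp, Myrf and Bcas1). Markers of microglia (9 genes, 2126 to 3697 CPM with DMSO and 1538 to 3171 CPM with ZJU-37) and of astrocytes (7 genes, 990.7 to 1600.0 CPM and 867.6 to 1304 CPM) were present in both groups, with none of the microglia markers passing the test and 1 astrocyte marker higher (Sox9) and 1 lower (Aldoc). None of 6 neuron markers passed, and none of the 4 tested genes of the fibroblast and endothelial list (Col1a1, Col3a1, Dcn and Pdgfrb). The endothelial markers Pecam1, which had no row, and Cldn5, which had no counts in any library, were not tested. The fit blocked on replicate number called 2334 of all 14670 tested genes lower. Among these were 6 of the oligodendrocyte markers, 5 of the microglia markers and 4 of the astrocyte markers. The neuron list and the fibroblast and endothelial list had 1 each. The part of these cell types in the results was not tested. In bulk RNA, a change in the number of cells of a type and a change in RNA per cell cannot be told apart.

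ZJU-37 treated OPCs had more transcript of 6 of the 9 family genes, E2f2, E2f5, E2f6, E2f7, E2f8 and Rbl1, and less of none. The increases were largest for the atypical repressors E2f8 (2.50-fold) and E2f7 (2.39-fold), followed by the activator E2f2 (1.93-fold) and the pocket protein gene Rbl1 (1.73-fold). E2f5 and E2f6 rose by 1.47-fold and 1.34-fold. In edgeR's quasi-likelihood test over all tested genes, the background was 9.43% of genes called higher and 5.58% called lower (threshold 0.05 on the adjusted p-value). Members had a median log2 fold change of 0.55, and all 14670 tested genes one of -0.03. The other 3 members, E2f3, E2f4 and Rb1, did not pass. With the replicate number as a block, E2f3 and Rb1 passed as well, which made 8 members of 9 higher, where 16.2% of all tested genes were higher. In 8 members all ZJU-37 libraries lay above all DMSO libraries, as did 19.0% of the tested genes, and E2f4 was the exception.

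**Figure D1:**
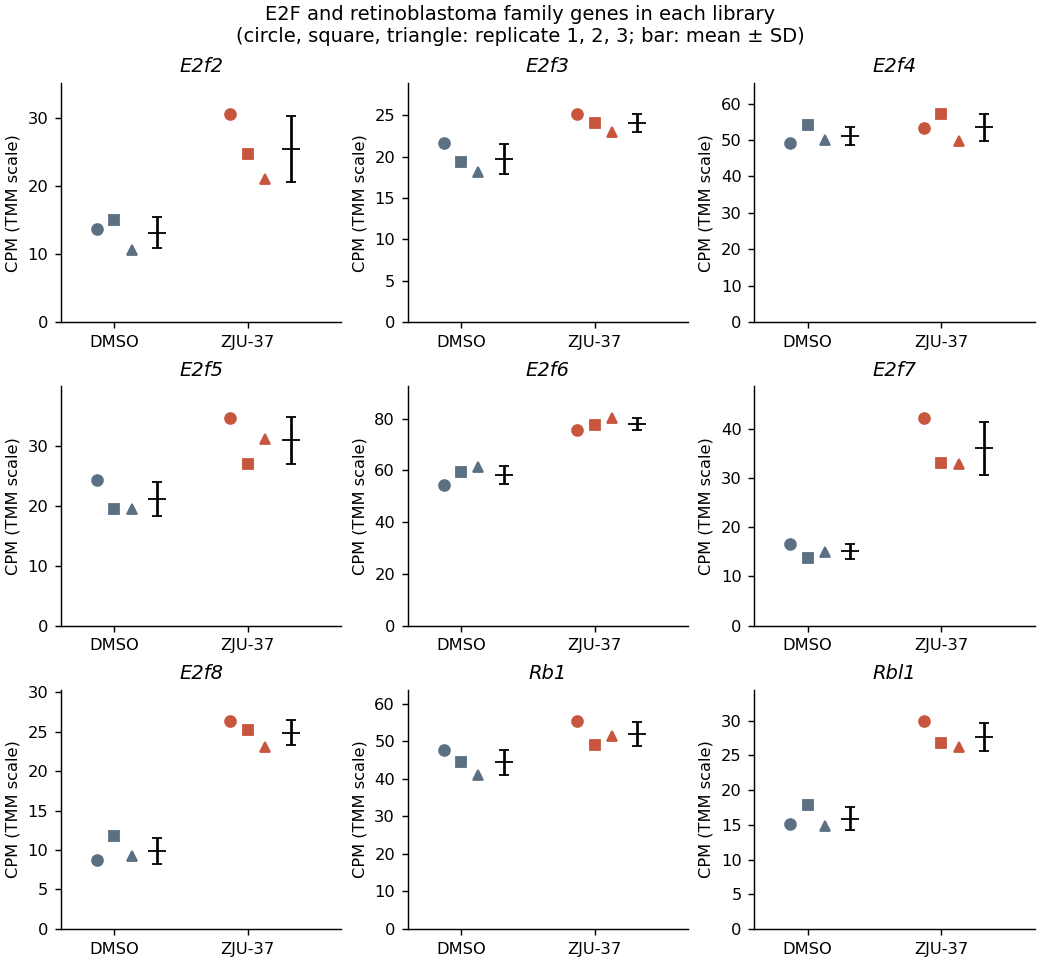
Level of each of the 9 family genes in CPM (TMM scale, y axis from 0) in the 3 DMSO and 3 ZJU-37 libraries, with the mean and SD beside the points. E2f8 and E2f7 have the largest fitted fold changes (2.50 and 2.39), whereas the libraries of the groups overlap for E2f4.

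The atypical E2Fs are brakes that E2Fs themselves switch on during S phase. E2f8 (chromosome 1, 104187100 to 104202591, minus strand, in the build of the authors' table, which is not named) was measured at 8.77, 11.8 and 9.18 CPM in the control libraries, in the order of their replicate numbers, and at 26.3, 25.2 and 23.1 CPM after treatment. The lowest treated library thus stood well above the highest control library. Its means were 9.92 ± 1.65 and 24.9 ± 1.63 CPM (SD, n = 3 per group), and the log2 fold change was 1.32 with a standard error of 0.14 (edgeR adjusted p = 0.00131). E2f7 (chromosome 7, 53275676 to 53316481, plus strand) had 16.6, 13.7 and 15.0 CPM with DMSO and 42.3, 33.1 and 32.8 CPM with ZJU-37. Replicate 1 was the highest library of either group for this gene, and the groups did not overlap. The log2 fold change of E2f7 was 1.26 with a standard error of 0.13 (edgeR adjusted p = 0.00142). Within the pairs of replicate 1, 2 and 3 the log2 differences were 1.35, 1.28 and 1.13 for E2f7 and 1.59, 1.09 and 1.33 for E2f8.

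E2f2, an activator that pocket protein RB restrains, had 13.7, 15.1 and 10.7 CPM in the DMSO libraries and 30.6, 24.7 and 21.0 CPM in the ZJU-37 libraries. The treated libraries varied more among themselves than those of E2f8 did, but none came down to the level of a control library. The log2 fold change was 0.95 with a standard error of 0.18 (edgeR adjusted p = 0.0155), and with DMSO replicate 1 left out the adjusted p-value rose to 0.05, the limit itself. E2f3, the other activator with a row, had 21.7, 19.3 and 18.2 CPM with DMSO and 25.1, 24.1 and 23.0 CPM with ZJU-37. The groups did not overlap, and the gap between the nearest libraries was small. Its log2 fold change of 0.29 (95% interval 0.06 to 0.51, adjusted p = 0.0960) did not pass without the block and passed with it (0.29, standard error 0.08, edgeR adjusted p = 0.0255).

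Reads of E2f1 could not be read from a row of that name. A row named Necab3 (ENSRNOG00000016708, chromosome 3, 150047826 to 150073721, minus strand) carries the authors' tag for the E2F family of transcription factors, and E2f1 lies beside Necab3 in the RefSeq gene table, with C3h20orf144 and Actl10 between them. This row had 19.0, 19.8 and 18.2 CPM with DMSO and 39.8, 39.7 and 35.8 CPM with ZJU-37, a log2 fold change of 1.02 (standard error 0.08, edgeR adjusted p = 5.08e-04). How much of it stems from either gene cannot be told apart here, and it was not counted among the members.

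Of the repressing E2Fs, E2f6 (chromosome 6, 42092467 to 42108702, plus strand) rose and E2f4 did not pass the test. E2f6 had 54.4, 59.3 and 61.1 CPM in the DMSO libraries and 75.6, 77.6 and 80.4 CPM in the ZJU-37 libraries. All treated libraries lay above all control libraries. The log2 fold change of 0.42 (standard error 0.07, edgeR adjusted p = 0.00729) came from nearly equal differences in the pairs, 0.47, 0.39 and 0.39. E2f5, which acts with p130 and p107, had 24.3, 19.5 and 19.4 CPM with DMSO and 34.7, 27.0 and 31.1 CPM with ZJU-37. Its groups did not overlap, but DMSO replicate 1 came within 3 CPM of ZJU-37 replicate 2. The log2 fold change was 0.55 with a standard error of 0.13 (edgeR adjusted p = 0.0356), and the call was lost without DMSO replicate 2 (adjusted p = 0.123), DMSO replicate 3 (0.116), ZJU-37 replicate 1 (0.0615) or ZJU-37 replicate 3 (0.0901). E2f4, the main E2F of resting cells, had 49.2, 54.0 and 50.1 CPM with DMSO and 53.4, 57.1 and 49.8 CPM with ZJU-37. These libraries overlapped, and the log2 fold change of 0.06 had a 95% interval from -0.12 to 0.24, with an edgeR adjusted p of 0.639.

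Among the pocket protein genes, Rbl1 (chromosome 3, 153263692 to 153321352, minus strand), whose product p107 is typical of cycling cells, had 15.1, 17.8 and 14.8 CPM with DMSO and 30.0, 26.8 and 26.2 CPM with ZJU-37. Every treated library was clearly above every control library. The log2 fold change was 0.79 with a standard error of 0.11 (edgeR adjusted p = 0.00369). Rb1 had 47.7, 44.6 and 40.9 CPM with DMSO and 55.4, 49.0 and 51.5 CPM with ZJU-37. The groups were apart by less than 2 CPM at their nearest libraries. Its log2 fold change of 0.23 (95% interval 0.03 to 0.42, adjusted p = 0.122) did not pass, and passed with the replicate block (0.23, standard error 0.06, edgeR adjusted p = 0.0221). The annotated span of Rb1 also holds Lpar6 on the other strand, whose counts came to 25.4% of those of Rb1. Whether reads of Lpar6 entered the count of Rb1 was not tested, which leaves the value of Rb1 less certain. Rbl2, the pocket protein gene outside the 10 names, moved the other way. It had 83.1, 87.8 and 80.0 CPM with DMSO and 69.4, 68.7 and 68.4 CPM with ZJU-37, with each treated library below each control library. The product of Rbl2, p130, is typical of resting cells. It fell by 0.28 on the log2 scale (standard error 0.06, edgeR adjusted p = 0.0206), a call lost without DMSO replicate 1 (adjusted p = 0.0552), DMSO replicate 2 (0.0849), ZJU-37 replicate 2 (0.0850) or ZJU-37 replicate 3 (0.113).

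**Figure D2:**
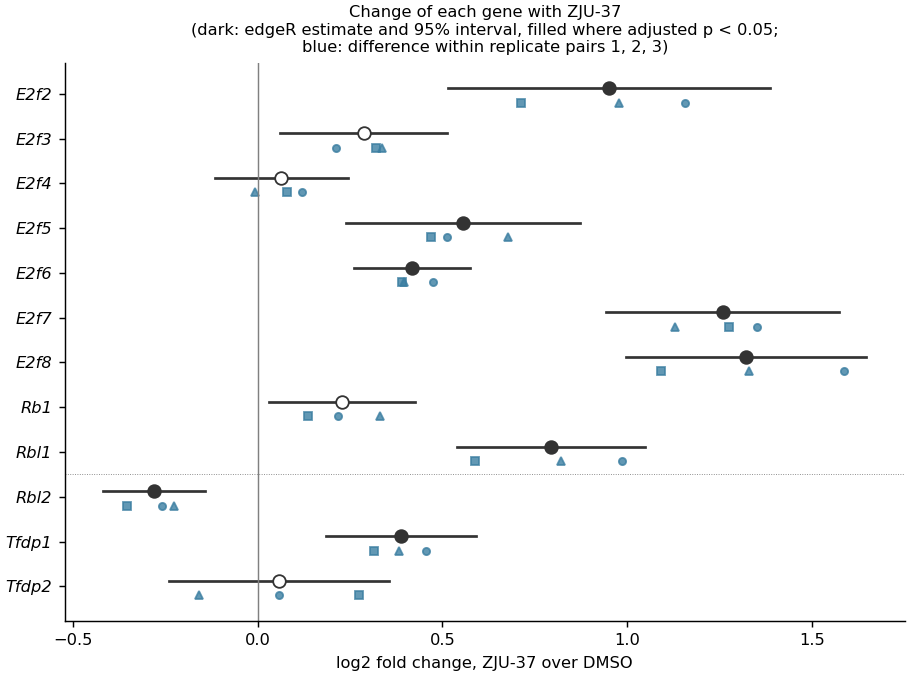
Log2 fold change of ZJU-37 over DMSO (x axis) for the 9 members and, below the dotted line, Rbl2 and the DP genes Tfdp1 and Tfdp2, with the edgeR estimate and its 95% interval (filled where the adjusted p-value was under 0.05) and the difference within each replicate pair. E2f8 and E2f7 stand farthest to the right at 1.32 and 1.26, and Rbl2 alone lies to the left of 0 with its whole interval.

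Because CPM depends on transcript length, levels of different genes were compared as CPM per kilobase of the listed gene length. In DMSO libraries the order was E2f6 (26.1 ± 1.55), E2f4 (25.3 ± 1.27), E2f5 (20.8 ± 2.77), Rb1 (14.2 ± 1.08), E2f3 (8.10 ± 0.73), Rbl1 (5.30 ± 0.55), E2f7 (4.47 ± 0.43), E2f8 (3.77 ± 0.63) and E2f2 (2.79 ± 0.48 CPM per kilobase, SD, n = 3). Ranges over the libraries overlapped between E2f6 and E2f4 and between E2f7 and E2f8, and between no other neighbours in this order. In ZJU-37 libraries E2f6 (34.9 ± 1.07) again came first and E2f2 (5.39 ± 1.02) last. E2f7 (10.7 ± 1.6), E2f3 (9.87 ± 0.44), E2f8 (9.45 ± 0.62) and Rbl1 (9.21 ± 0.68 CPM per kilobase) then formed a run of neighbours whose ranges overlapped. E2f7 thus moved from the seventh place to the fifth, ahead of E2f3 by less than the spread between libraries.

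The make-up of the family differed between the groups on the same per-kilobase scale. E2f7 and E2f8 together made up 8.90%, 9.27% and 8.92% of the summed E2F level in DMSO replicates 1, 2 and 3, and 16.9%, 15.6% and 15.0% in the ZJU-37 replicates. The share of E2f4, E2f5 and E2f6 was 78.4%, 78.7% and 80.2% with DMSO and 70.6%, 72.2% and 73.8% with ZJU-37. E2f2 and E2f3 kept between 10.9% and 12.7% with DMSO and between 11.2% and 12.6% with ZJU-37, with overlapping groups. The sum leaves out the activator E2f1, which had no row, so that the share of all activators is not known. It also leaves out the row named Necab3, which had 4.21 ± 0.17 with DMSO and 8.52 ± 0.51 CPM per kilobase with ZJU-37. Of the 3 pocket protein genes, Rbl1 made up between 13.5% and 15.5% with DMSO and between 22.2% and 23.8% with ZJU-37, while Rbl2 made up between 45.7% and 47.7% and between 34.0% and 36.5%. Rb1 had between 37.3% and 40.8% with DMSO and between 40.5% and 42.2% with ZJU-37. Shares within a sum depend on each other, and these were described without a test.

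**Figure D3:**
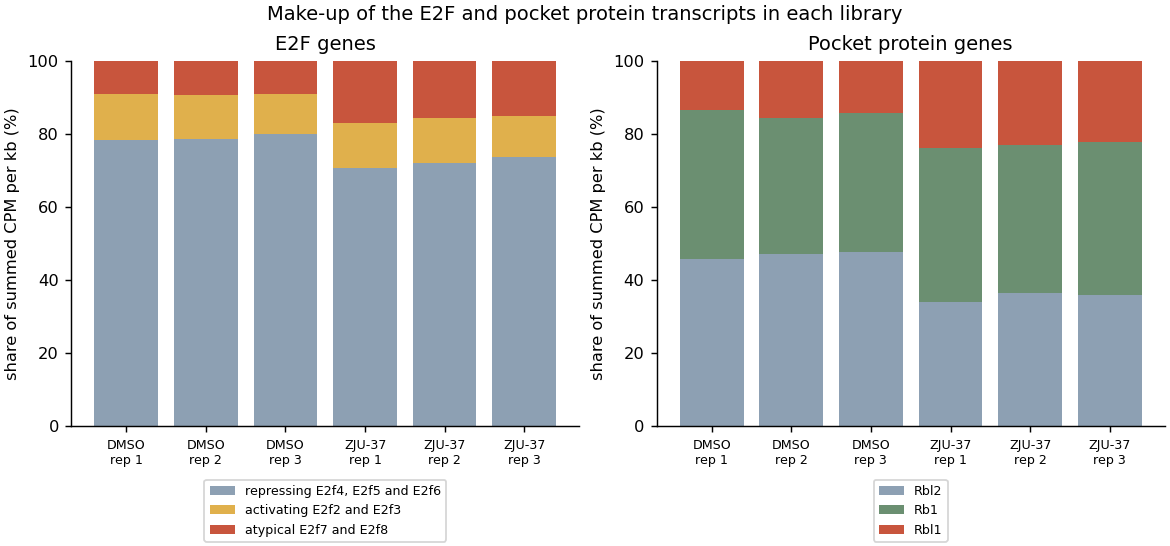
Share (%, y axis) of the summed CPM per kilobase of the 7 E2F genes with a row, by role, and of the 3 pocket protein genes, in each library. The band of E2f7 and E2f8 ranges from 8.90% to 9.27% in the DMSO libraries and from 15.0% to 16.9% in the ZJU-37 libraries, and the band of Rbl1 widens from at most 15.5% to at least 22.2%.

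The partners of the family were described from fixed lists. Tfdp1, the main DP partner of the E2Fs, had 163.0, 151.3 and 147.8 CPM with DMSO and 223.7, 188.2 and 192.7 CPM with ZJU-37. The groups did not overlap. Tfdp1 had a log2 fold change of 0.39 (standard error 0.09, edgeR adjusted p = 0.0253), which did not pass without DMSO replicate 2 (adjusted p = 0.0969), DMSO replicate 3 (0.0911) or ZJU-37 replicate 3 (0.0515). Tfdp2 had a log2 fold change of 0.06 with a 95% interval from -0.24 to 0.36 and overlapping groups, and its sign turned without DMSO replicate 2 (-0.013).

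Of the 8 cyclins and kinases that phosphorylate pocket proteins, 6 were higher with ZJU-37 and none was lower, with a median log2 fold change of 0.67. Of all tested genes, 9.43% were higher and 5.58% lower. Cyclin D1 (Ccnd1) rose from 566 ± 31.9 to 1466 ± 145 CPM, a log2 fold change of 1.37, and Ccnd2, Ccne2, Cdk2, Ccne1 and Cdk6 had log2 fold changes of 0.90, 0.83, 0.72, 0.62 and 0.40. Cdk4 (0.10) and Ccnd3 (0.05) did not pass.

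The MuvB core binds either p107 or p130 with E2F4 or E2F5, forming the DREAM repressor, or the activators B-MYB and FOXM1. Of the 8 genes listed, 6 were higher and none lower, where 9.43% of all tested genes were higher and 5.58% lower. Mybl2, which encodes B-MYB, rose from 42.1 ± 0.20 to 108 ± 11.7 CPM (log2 fold change 1.36), and Foxm1 from 46.1 ± 3.50 to 116 ± 12.5 CPM (1.33). Lin9, Mybl1, Lin54 and Rbbp4 rose by 0.86, 0.84, 0.47 and 0.23 on the log2 scale, whereas Lin37 (-0.07) and Lin52 (-0.16) did not pass. The 9 partners of E2F6 in its Polycomb complex contained 1 gene that rose, Cbx3 (0.38), and Rybp had a log2 fold change of -0.41 that did not pass (adjusted p = 0.0535, and 0.00353 with the block, edgeR), with a list median of -0.03. All 3 ubiquitin ligase genes of the turnover list rose, Ccnf by 1.13, Skp2 by 0.64 and Fzr1 by 0.49.

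Textbook targets of the family were read from the same fit, which called 9.43% of all tested genes higher and 5.58% lower. Of 45 G1/S genes with a row, 44 were higher and none lower, with a median log2 fold change of 1.08. Rrm2, a subunit of ribonucleotide reductase, had the largest change of those that passed (1.59, from 60.8 ± 3.75 to 183 ± 14.5 CPM), followed by the licensing factor Cdc6, which had 9.74 ± 1.78 and 27.5 ± 3.44 CPM. The smallest changes were those of Msh6 (0.42), Gins2 (0.44) and Cdc25a (0.48). Hells, the gene that did not pass, had a mean of 0.862 CPM with DMSO and 5.04 CPM with ZJU-37 and overlapping groups. All 25 G2/M genes with a row were higher, with a median of 1.24 and a range from 0.78 (Cdc25b) to 1.39 (Cenpf), and Nek2 (1.39) and Mki67 (1.32) stood next to Cenpf. Aurka (0.94) and Bub1b (1.05) followed Cdc25b at the lower end. The changes of E2f7 and E2f8 lay within the range of both target lists, whereas those of E2f3, E2f4 and Rb1 were below the smallest value of either. The change of E2f6 (0.42, standard error 0.07) differed by less than its standard error from that of Msh6 (0.42, standard error 0.11), the smallest of the G1/S list. The target genes were listed for being targets in general, with results of these data known, and their counts are a description. The lists share genes, so that their counts are not independent. Ccna2 was on both target lists, and Ccne1, Ccne2 and Mybl2 were on the G1/S list and on a partner list.

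**Figure D4:**
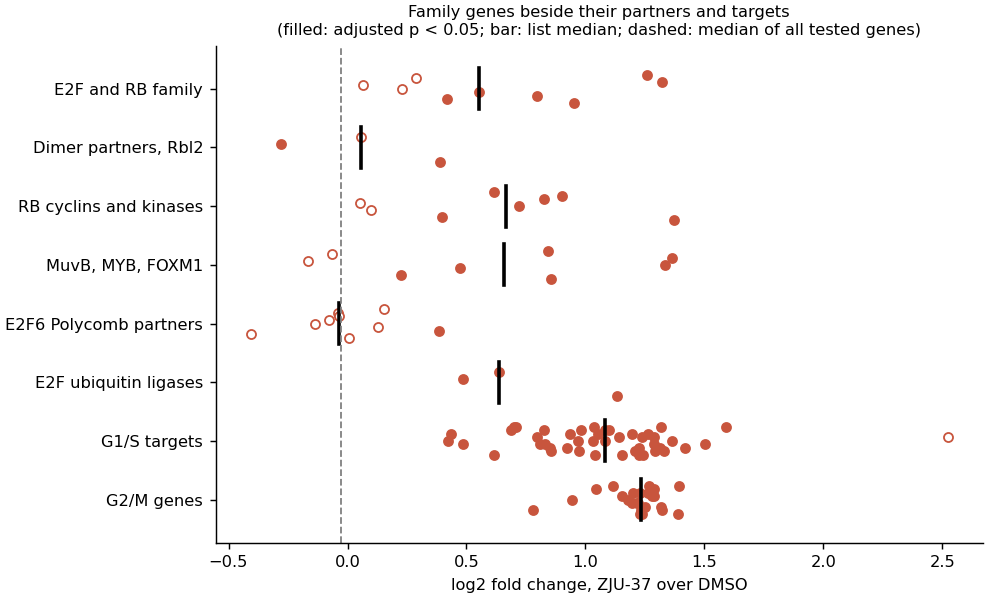
Log2 fold change of ZJU-37 over DMSO (x axis) for each tested gene of the family, its partners and its targets, with filled points for an adjusted p-value under 0.05, a bar at the list median and a dashed line at the median of all tested genes (-0.03). Points of the G1/S and G2/M lists cluster around medians of 1.08 and 1.24, the family spreads from 0.06 to 1.32, and the Polycomb partners of E2F6 sit around the dashed line.

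Over the 6 libraries, the genes outside the family most like E2f8 in log2 CPM (of the 11643 genes averaging 5 CPM or more) were Nxt1, Trpc2 and Bax, with Pearson's r of 0.999, 0.999 and 0.998. Those most like Rb1 were Mpg, Telo2 and Slitrk5, with r of 0.997, 0.995 and 0.990. The libraries share the split between treatments, and these values are given as a description.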

How the data were processed

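Poly-A RNA of rat OPCs was profiled in 3 DMSO and 3 ZJU-37 libraries. Per the labels, reads were aligned with HISAT2 2.0.5 and counted per gene with featureCounts 1.5.0. The genome build is not given in the sources used here. The authors deposited raw counts. The FPKM values of the authors, scaled to gene length and library total, were used in alternatives. The authors' own fold changes and p-values in the table were not used.

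Counts were filtered with filterByExpr, scaled by TMM (factors from 0.981 to 1.04) and tested with edgeR 4.0.16 (robust glmQLFit, glmQLFTest) in R 4.3.3, with Benjamini-Hochberg adjustment over 14670 genes and a threshold of 0.05. Alternatives were DESeq2 1.42.0, limma 3.58.1 on log2(FPKM + 1) and log2(FPKM + 0.1), RLE or library size scaling, no filter or a stricter one (10 counts or more in each library), a block for the replicate number, and leaving out each library. Fits were tested on simulated data. Named genes were all members, their partner lists, the 3 largest and 3 smallest changes of each target list, and the 3 genes most like E2f8 and Rb1 (E2f1, also planned, had no row). Members and lists were chosen with earlier results of these data known. Chek1, Ccnb2, Lhfpl3 and Pecam1 had no row of their name and were not analysed here. Cldn5 had no counts in any library and was not tested. No protein sequences were used.

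Replicate numbers come from the labels. Across genes, the deviations from the group mean correlated between libraries of the same number with r = 0.496, 0.385 and 0.401. Other combinations had at most 0.00608, so that libraries of the same number were more alike. Deviations from a group mean cancel out within the group, which lowers the values of other combinations, so that part of this contrast is built in. The reported fit has no replicate term, and the blocked fit is given beside results whose call or count it changes. Intervals and the limit of 3 counts cover counting error or the spread of these libraries only. No library was a duplicate of another (chi-square of at least 11.3 per degree of freedom).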

Additional observations from a re-analysis of the deposited data

How the results depend on the processing

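Of the 9 members, 6 were higher in every fit that kept all 6 libraries without the block, and 8 with the replicate block, which changed the call of E2f3 and Rb1 and of no other member. Between 5 and 6 were higher when 1 library was left out, with E2f5 the one lost, and 0 were lower in any fit. Over the 14 alternatives the log2 fold change ran from 1.13 to 1.47 for E2f8, from 1.09 to 1.35 for E2f7, from 0.75 to 1.10 for E2f2, from 0.69 to 0.88 for Rbl1, from 0.37 to 0.46 for E2f6, from 0.48 to 0.67 for E2f5, from 0.23 to 0.36 for E2f3, from 0.17 to 0.30 for Rb1 and from 0.04 to 0.14 for E2f4. Adjusted p-values over these fits reached at most 0.00896 for E2f8, 0.00984 for E2f7, 0.0198 for Rbl1 and 0.0393 for E2f6. Tfdp2 reversed without DMSO replicate 2, to -0.013, and the cause was not tested. Between 43 and 45 G1/S genes and all 25 G2/M genes were higher in each fit. The count of all genes under the threshold, 2201, became 4705 with the replicate block (50.4% of them higher, against 62.8% without it), and ran from 1306 to 1927 with 1 library left out. A filter on low counts or another scaling left every member on its side of the threshold. Each member had at least 120 counts in each library, and the effect of depth on the calls was not tested.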
